A study of Drosophila melanogaster with 15 samples.

Results

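The genes described here encode structural proteins of the insect cuticle and close companions of cuticle formation. They were chosen by symbol from array rows annotated to a single gene, namely symbols that begin with Cpr and a digit, Lcp, Ccp84A, Acp65A, Edg, Twdl or Osi and a digit, or that read Pcp. The rule found 117 of the 9894 named genes with a measured row, on 132 rows. Among them were 58 Cpr, 23 Osi, 18 Twdl, 7 Lcp, 6 Ccp84A and 3 Edg genes, with Acp65Aa and Pcp. Current gene records hold 147 protein-coding genes of these names, and the other 30 were not analysed here. RNA came from Drosophila melanogaster larvae of the wild-type Canton S strain, taken about 18 hours before pupariation. Epidermis, dissected together with the muscle attached to it, was set beside midgut, salivary gland, central nervous system and the imaginal disc of the wing, with 3 independent samples of each. On every one of the 15 arrays amplified RNA of 1 tissue was hybridised together with a reference prepared from whole larvae of that stage. Each value is therefore the log2 of the tissue signal divided by the whole-animal signal, centred on the median of its array, and not an abundance that can be set against that of another gene.

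Insect cuticle is a layered matrix of chitin fibres and proteins that epidermal cells secrete at their outer face. Most of its proteins belong to the CPR family, whose shared Rebers and Riddiford domain binds chitin. The Cpr, Lcp, Ccp84A and Acp65Aa genes, Pcp, Edg78E and Edg84A are of that family. Tweedle (Twdl) proteins are cuticle proteins without this domain, and Osiris (Osi) genes encode predicted membrane proteins made in epithelia that form cuticle. The Edg genes were named as ecdysone-dependent genes, after the steroid hormone that starts metamorphosis, and several act in the pupal cuticle. Before pupariation the epidermis carries the last larval cuticle, which later hardens and darkens into the puparium, while the wing disc makes pupal and adult cuticle only later.

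Epidermis held a small set of these genes far above the other tissues, and most of the rest showed little difference or were measured too rarely to test. Of the 117 genes, 44 had a value on at least 2 of 3 arrays in every tissue and could be tested (37.6%, against 66.9% of all named genes). In all, 18 had a value on all 15 arrays (15.4%, against 37.2%). The 44 tested genes comprised 25 of 58 Cpr, 5 of 7 Lcp, 4 of 18 Twdl, 3 of 6 Ccp84A, 3 of 23 Osi and 2 of 3 Edg genes, with Acp65Aa and Pcp. Gaps were most common on epidermis replicate 3, where 24.2% of the cuticle gene rows had a value, against 55.1% of all measured rows. Of the tested genes 19 rest on 2 epidermis arrays, and 37 of the 117 had fewer than 2. The median number of arrays with a value was 15 for Lcp, 11 for Cpr, 10 for Twdl and 7 for Osi. Of the 18 genes with a value on every array 12 were higher in epidermis past the test described next, as were 2 of the other 26 tested. No share over all features split in this way is given, so these counts cannot be read as particular to cuticle genes. Why cells of the deposited table are empty is not given in the sources used here.

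**Figure D1:**
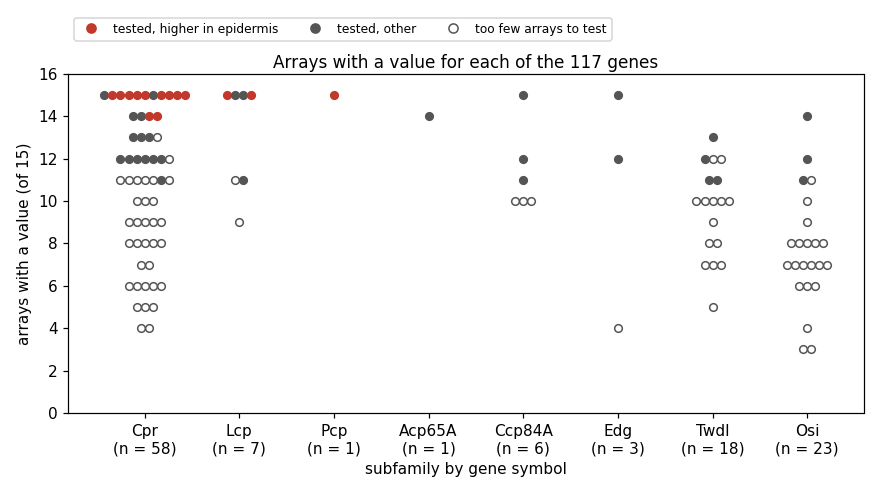
Number of arrays with a value (vertical axis, of 15) for each of the 117 cuticle genes, by subfamily (horizontal axis). Each point is 1 gene, red where it was tested and higher in epidermis, grey where tested and not higher, and open where too few arrays had a value; red points lie at 14 or 15 arrays, and no Osi or Twdl gene reached 15.

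Differences between epidermis and the mean of the other 4 tissues were tested with limma across all 8432 features measured in every tissue, with Benjamini-Hochberg adjusted p-values and a threshold of 0.05. The whole-animal reference cancels in such a difference. Of the 44 tested genes 14 were higher in epidermis (31.8%, against 8.11 percent of all features), 1 was lower (against 3.63 percent), and 29 did not pass. The median difference was log2 0.26 over the 44 genes and -0.01 over all features. The 14 were 11 Cpr genes, Lcp9, Lcp65Aa and Pcp. For 16 of the 44 genes every epidermis array lay above every array of the other tissues, which held for 4.55 percent of all features. Over all 5 tissues, the F test passed for 17 of 44 genes (38.6%), which was below the 44.5 percent of all features. These are RNA measurements of whole tissue, in which fewer cells of a type and less RNA per cell cannot be told apart.

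**Figure D2:**
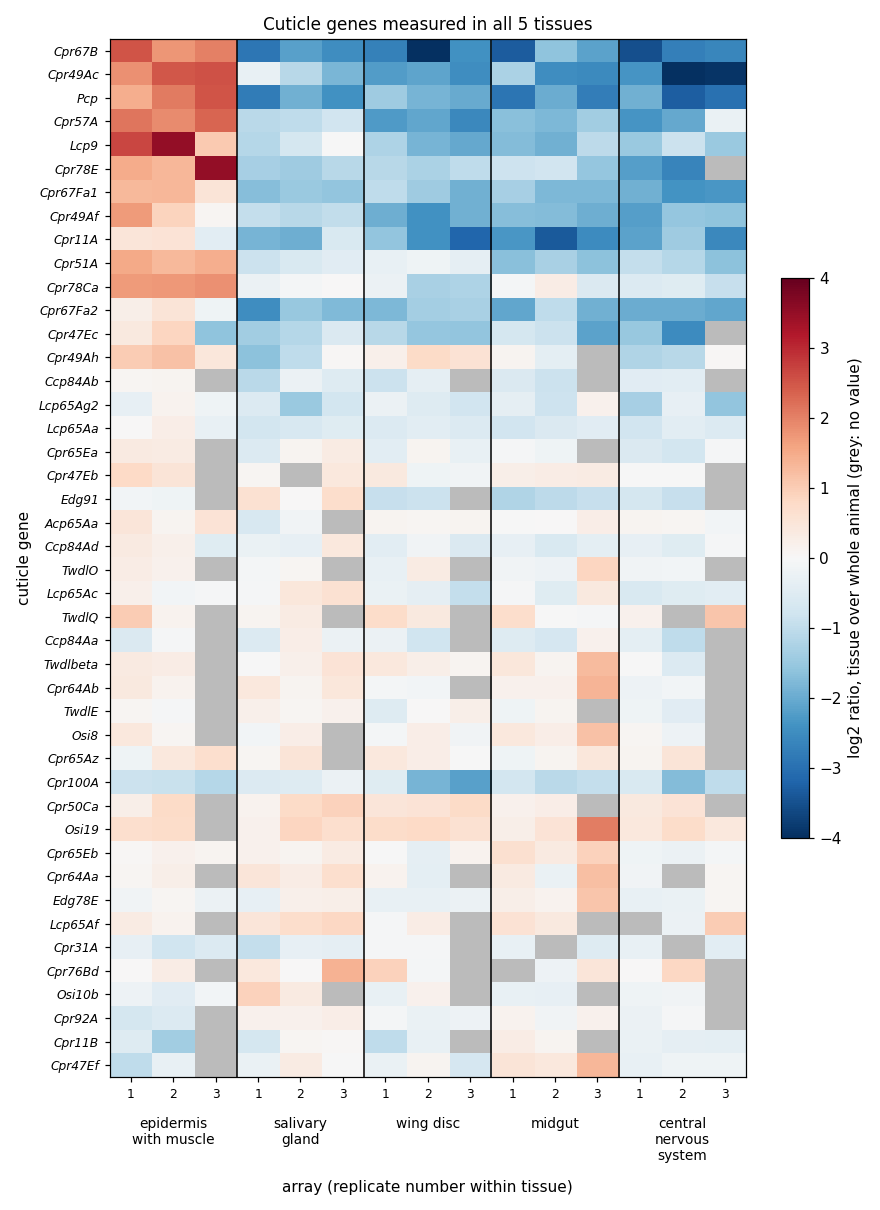
Log2 ratio over whole animal (colour, from blue below 0 to red above 0) of the 44 cuticle genes tested in all tissues (rows, ordered by the difference of epidermis from the other tissues) on the 15 arrays (columns, 3 per tissue). Red in the 3 epidermis columns beside blue in the 12 others is seen in the top rows, and grey cells have no value.

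Of the 4 genes used as markers of cuticle-forming epidermis, Cpr49Ac, Pcp and Lcp9 were higher there and Acp65Aa did not pass. Cpr49Ac, a chitin-binding cuticle protein gene, read 1.82, 2.49 and 2.56 on the epidermis arrays, against -0.29, -1.10 and -1.82 in salivary gland. In wing disc it read -2.25, -2.12 and -2.48, in midgut -1.28, -2.50 and -2.55, and in central nervous system -2.37, -4.32 and -3.92. Epidermis thus stood above 0 and all 12 other arrays below it, with salivary gland nearest. Pcp, a pupal cuticle protein gene, read 1.47, 2.08 and 2.51 in epidermis, against values between -1.43 (a wing disc array) and -3.30 (a nervous system array) on the other 12. Lcp9, a larval cuticle protein gene, read 2.67, 3.53 and 1.06 in epidermis, and its other arrays all lay below 0, down to -2.04 in wing disc. Here too the groups did not overlap, and the epidermis arrays differed among themselves more than for Pcp (SD 1.25 for Lcp9 and 0.524 for Pcp). As ratios of geometric means, epidermis held 23.2 times the Cpr49Ac signal of the other tissues, 20.8 times that of Pcp and 13.1 times that of Lcp9. Acp65Aa, an adult cuticle protein gene, read 0.49, 0.11 and 0.55 in epidermis, and between -0.64 and 0.27 on 11 other arrays. Its difference of log2 0.43 (SE 0.169, adjusted p = 0.134) did not pass, and the groups overlapped.

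Larger than any of these was the difference of Cpr67B, at log2 4.84 (SE 0.364, adjusted p = 9.96e-08) or 28.6-fold. Its epidermis arrays read 2.53, 1.76 and 2.0, and the other 12 lay between -1.61 and -4.21, both extremes being reached in single arrays of midgut and wing disc. Cpr57A read 2.13, 1.91 and 2.34 in epidermis and at most -0.26 elsewhere, for a difference of 3.73 (SE 0.307, adjusted p = 2.77e-07). The epidermis arrays of Cpr57A lay close together (SD 0.215), while 1 nervous system array stood at -0.26 and the other two at -2.37 and -2.05. Cpr78E read 1.47, 1.33 and 3.51 in epidermis, against -0.76 to -2.64 on the 11 other arrays that had a value. The difference of Cpr78E was 3.58 (SE 0.348, adjusted p = 2.72e-06), with epidermis replicate 3 far above the other two.

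A second tier lay between log2 1.97 and 2.77. Cpr67Fa1 read 1.31, 1.34 and 0.50 in epidermis, against -1.01 to -2.38 elsewhere (difference 2.77, SE 0.220, adjusted p = 1.87e-07). Its near neighbour Cpr67Fa2 read 0.24, 0.52 and -0.18 in epidermis, against -1.01 to -2.49 elsewhere (1.97, SE 0.243, adjusted p = 2.28e-05). The paired symbols mark closely related copies, and signal shared between their rows was not tested. Cpr49Af read 1.69, 0.90 and 0.08 in epidermis, with -0.94 as the highest other array (2.56, SE 0.252). Cpr51A, at 1.52, 1.28 and 1.45, and Cpr78Ca, at 1.70, 1.74 and 1.82, had the tightest epidermis arrays of the 12 highest genes (SD 0.121 and 0.0604). Elsewhere Cpr51A reached at most -0.17 and Cpr78Ca 0.29, which left differences of 2.34 (SE 0.176) and 2.19 (SE 0.224). Cpr11A read 0.48, 0.54 and -0.42 in epidermis, and the closest other array, 1 of salivary gland, was at -0.61 (2.36, SE 0.360, adjusted p = 0.000219). Each of these genes kept its epidermis arrays above all others.

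These 12 genes, 10 of them Cpr, passed in each of the 4 comparisons of epidermis with salivary gland, wing disc, midgut and central nervous system. Those comparisons use the same arrays by which the 12 were picked and are not independent support. All 12 were measured by a single row, and they passed under every alternative processing in which they could be tested. The other 2 genes above the threshold lie outside the naming rule and are named after their values were seen. Cpr49Ah read 1.01, 1.18 and 0.46 in epidermis and reached 0.76 in wing disc, so its groups overlapped (difference 1.19, SE 0.324, adjusted p = 0.0247). It passed against salivary gland and central nervous system, and not against wing disc or midgut. Lcp65Aa, a larval cuticle protein gene, read 0.00, 0.26 and -0.29 in epidermis, against -0.41 to -0.76 elsewhere (0.56, SE 0.160, adjusted p = 0.0299), and it passed in 0 of the 4 pairs. The call of Cpr49Ah was lost under 2 of 20 alternatives, without epidermis replicate 1 or 2, and that of Lcp65Aa under 5 of 23, namely both other centrings and without epidermis replicate 1, epidermis replicate 2 or midgut replicate 1. Nearest outside the threshold stood Cpr47Ec at 1.31 (SE 0.427, adjusted p = 0.0631). Its epidermis arrays read 0.39, 0.87 and -1.61, and the difference without replicate 3 was 2.05 (adjusted p = 0.00129). Cpr47Ec also passed with a replicate block (1.37) and without midgut replicate 1 (1.37), and did not pass under the other 17 of 20 alternatives, in which the adjusted p reached 0.357.

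**Figure D3:**
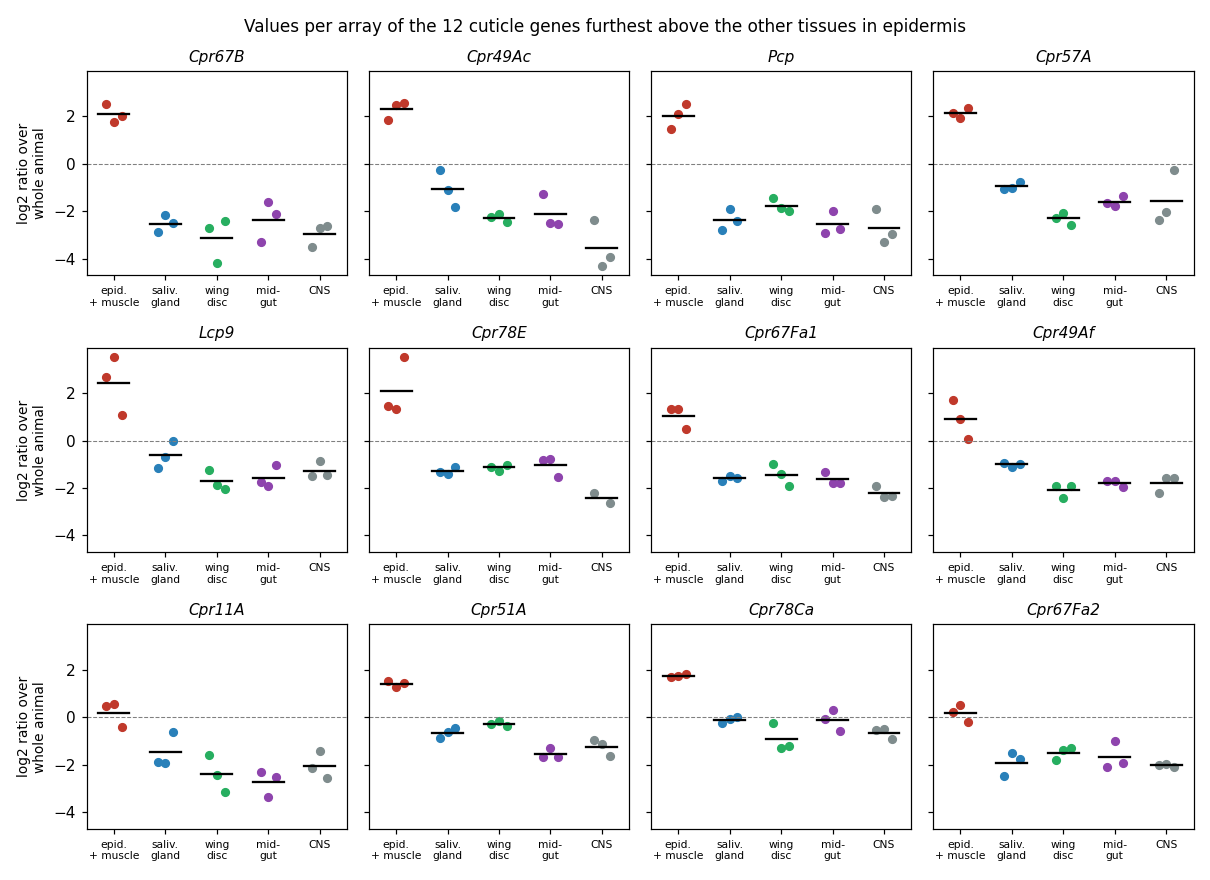
Log2 ratio over whole animal (vertical axis) of the 12 cuticle genes with the largest difference of epidermis from the other tissues, 1 panel per gene, by tissue (horizontal axis). Points are single arrays and the bar is their mean; in every panel the lowest epidermis point lies above the highest point of the other tissues.

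The remaining tested Lcp, Ccp84A, Edg, Twdl and Osi genes gave differences of log2 -0.28 to 0.69 and did not pass. Among the tweedle genes, TwdlE, TwdlO, TwdlQ and Twdlbeta differed by log2 0.09 to 0.21, with 95% intervals reaching from -0.53 to 0.85 (0 of 4 passed, and 0 at an unadjusted p under 0.05). Twdlbeta, with the largest F among them, read 0.36 and 0.29 in epidermis and between -0.54 and 1.25 on the other 11 arrays with a value. The osiris genes Osi8, Osi10b and Osi19 differed by -0.28 to 0.08 (0 of 3 passed, and 0 unadjusted). In the Ccp84A group, Ccp84Aa, Ccp84Ab and Ccp84Ad differed by 0.13 to 0.69 (0 of 3 passed, and 1 unadjusted). Ccp84Ab read 0.09 and 0.10 in epidermis, on 2 arrays, and -0.22 to -1.07 elsewhere, so that its arrays did not overlap. Its difference of 0.69 missed the threshold, although its 95% interval of 0.14 to 1.24 excluded 0. Edg78E, a pupal cuticle protein gene, differed by -0.11 and Edg91, which encodes a glycine-rich cuticle protein, by 0.44. Lcp65Ac, Lcp65Af and Lcp65Ag2 ran from -0.18 to 0.60. Of the 5 tested Lcp genes 3 had an unadjusted p under 0.05, among them the 2 that passed.

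Over the 29 tested genes that did not pass, the 95% interval extended a median of log2 0.55 to either side of the estimate, at most 0.910. For 22 of them the whole interval lay between -1 and 1. A difference of epidermis the size of those in the 12 highest genes was therefore outside the interval for these 22 genes, and the test does not show that they were equal. Cpr92A alone was lower in epidermis, reading -0.70 and -0.55 on 2 arrays, against -0.28 to 0.25 on the 11 others with a value (difference -0.60, SE 0.184, adjusted p = 0.0468). That call was lost under 13 of 18 alternatives. The 12 highest genes were picked by their epidermis difference, which was at least log2 1.97. A span of tissue means at least that wide follows from this choice. The tissue means of these 12 spanned 2.21 to 5.83 between the highest and lowest tissue. Those of the other 32 spanned 0.188 to 1.90, with a median of 0.755, against a median of 0.934 over all tested features.

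**Figure D4:**
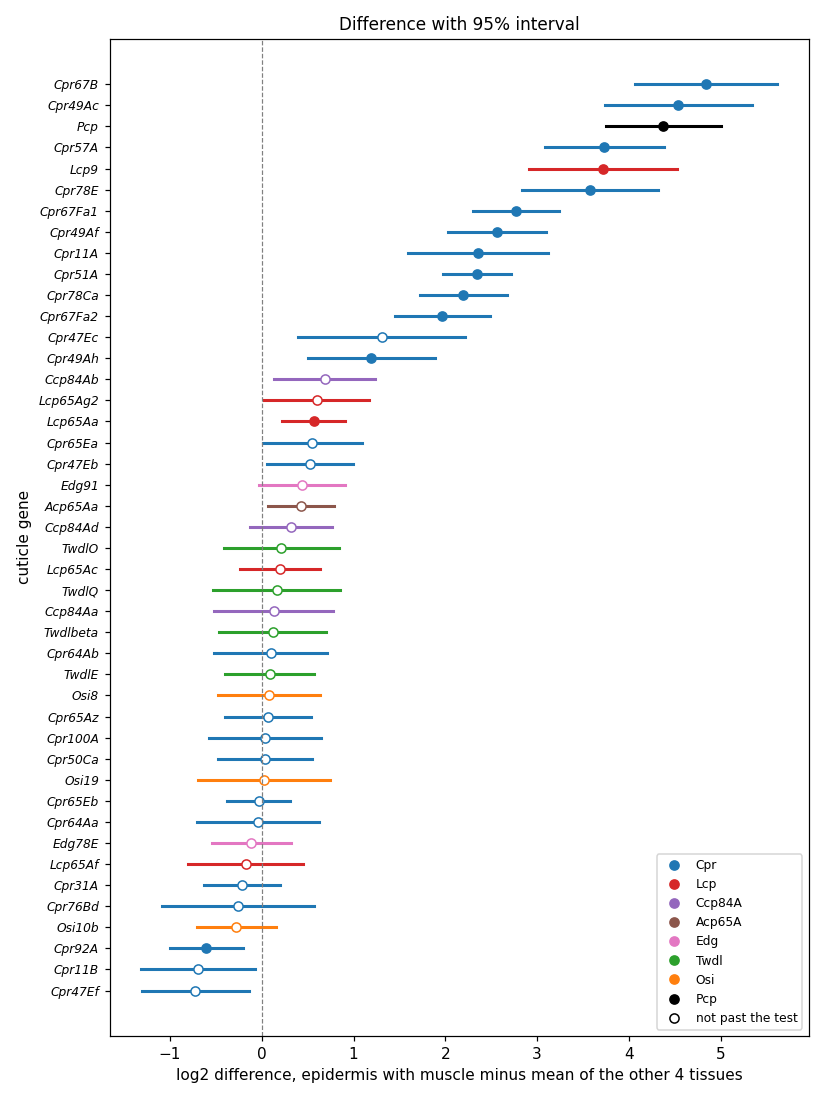
Difference in log2 ratio, epidermis with muscle minus the mean of the other 4 tissues (horizontal axis), for the 44 tested cuticle genes (rows), coloured by subfamily. Points are estimates with 95% intervals, filled where the gene passed the test; Cpr67B at 4.84 stands furthest right and the Twdl and Osi intervals all include 0.

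Cuticle genes were also compared between 2 tissues at a time. They had values on fewer arrays than named genes at large, and the shares below were not matched for this. In each of the 4 pairs with epidermis the share of cuticle genes that passed was above that of all features. In each of the 6 pairs without epidermis it was below, though near that of all features for wing disc against central nervous system. It was 10.4% for salivary gland against wing disc (18.3 percent of all features) and 6.76% for salivary gland against midgut (14.8 percent). For salivary gland against central nervous system it was 4.55% (19.2 percent), and for wing disc against midgut 7.46% (24.7 percent). Wing disc against central nervous system gave 3.57%, or 2 of 56 genes (5.53 percent), and midgut against central nervous system 8.06% (26.8 percent). The 4 comparisons with epidermis gave 21.7% against salivary gland (10.5 percent of all features), 19.4% against wing disc (11.1 percent), 22.7% against midgut (16.4 percent) and 15 of 60 genes against central nervous system (15.4 percent). Epidermis stood higher in all 12 calls against wing disc and all 15 against central nervous system. It stood higher in 14 of 15 calls against salivary gland and in 14 of 17 against midgut. In number, the pairs without epidermis had 2 to 7 calls, and 0 to 9 with any 1 array left out. Shares of all features with an array left out are not given beside these counts. Salivary gland against wing disc had 7 calls, against 2 without wing disc replicate 2 and 4 without wing disc replicate 3 or salivary gland replicate 1 or 2. Wing disc against midgut had 5, against 2 without wing disc replicate 2 and 3 without wing disc replicate 3 or midgut replicate 3. Wing disc against central nervous system had 2, against 0 without wing disc replicate 2, 1 without wing disc replicate 1 and 4 without central nervous system replicate 1. Salivary gland against midgut had 5, against 2 without midgut replicate 2 and 3 without midgut replicate 1 or salivary gland replicate 1 or 2. Midgut against central nervous system had 5, against 2 without midgut replicate 1 or central nervous system replicate 3 and 3 without midgut replicate 3 or central nervous system replicate 1. Salivary gland against central nervous system had 3, against 1 without central nervous system replicate 2 and 5 without epidermis replicate 3. In the pairs with epidermis 12 to 19 genes were called with any 1 array left out.

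Against the mean of the other 4 tissues, which here includes epidermis, most calls in the remaining tissues were low ones. In wing disc 6 of the 44 genes passed and in central nervous system 9, all of them lower there. Of all features 19.8 percent and 22.1 percent passed in these 2 tissues, counted in both directions. Adjusted shares by direction are not given for them. At an unadjusted p under 0.05, 10 of 44 genes were lower in wing disc, against 1454 of 8432 features. In central nervous system 17 of 44 were lower, against 1429 of 8432 features. By limma 0 cuticle genes were higher in these 2 tissues. At an unadjusted p under 0.05 there was 1 higher in wing disc, against 1231 of 8432 features. In central nervous system there were 0, against 1449 of 8432 features. Every low call past the test in these 2 tissues fell on 1 of the 14 genes that were high in epidermis. A high epidermis value raises the mean that each other tissue is set against. This overlap therefore follows in part from the comparison and is not a separate result. Midgut had 3 genes higher (14.2 percent) and 7 lower (15.5 percent), and salivary gland 2 higher (7.72 percent) and 2 lower (10.3 percent). The count for central nervous system was 5 without its replicate 1. The salivary gland count of 4 was 2 without its replicate 1, wing disc replicate 2, midgut replicate 2 or central nervous system replicate 1 or 2.

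The few genes that were higher outside epidermis came from other subfamilies or other Cpr genes. Edg91 read 0.60, 0.01 and 0.71 in salivary gland, against -0.11 and -0.18 in epidermis, -0.93 and -0.86 in wing disc, -1.20, -1.05 and -0.93 in midgut, and -0.72 and -0.93 in central nervous system. Salivary gland was higher than the other tissues by log2 1.17 (SE 0.188, adjusted p = 0.000813), with every gland array above all others. Osi10b read 0.93 and 0.36 in salivary gland, against -0.44 to 0.16 on the 9 other arrays with a value (0.85, SE 0.229, adjusted p = 0.0233). In midgut Cpr47Ef read 0.52, 0.42 and 1.34, against -1.0 to 0.33 elsewhere (1.04, SE 0.233, adjusted p = 0.00312). Edg78E, at 0.23, 0.14 and 1.12 in midgut, overlapped the salivary gland arrays, which reached 0.23 (0.62, SE 0.205, adjusted p = 0.0301). Cpr65Eb was higher in midgut by 0.61 (SE 0.163, adjusted p = 0.00928), with 0.63, 0.35 and 0.91 there and 0.31 as the highest array elsewhere. For all 3 genes midgut replicate 3 was the highest midgut array. Without it the calls of Edg78E (0.31) and Cpr65Eb (0.47) were lost and that of Cpr47Ef remained. Both genes are measured by 2 rows. With only the row that had more values, the difference was 0.47 for Edg78E and 0.34 for Cpr65Eb and neither passed. The other row of Cpr65Eb averaged 1.06 in midgut and 0.03 to 0.48 in the other tissues, with a single wing disc array. The midgut comparison called 10 cuticle genes in all, and 6 without its replicate 2 or its replicate 3.

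Among the 14 genes that were high in epidermis, the tissue in second place was salivary gland for 6, wing disc for 6 and midgut for 2. The lowest tissue was wing disc for 5, central nervous system for 5, salivary gland for 2 and midgut for 2. Some of these orders held beyond the replicate error. Cpr51A was higher in wing disc than in midgut by log2 1.27 (SE 0.222, adjusted p = 0.000426). Cpr49Ac was higher in salivary gland than in central nervous system by 2.47 (SE 0.476, adjusted p = 0.00149), and Cpr57A stood above its wing disc value in salivary gland by 1.35 (SE 0.389, adjusted p = 0.0229), a call lost under 3 of 23 alternatives, among them without salivary gland replicate 3 and without wing disc replicate 3. For Pcp and Cpr67B no pair among the 4 tissues other than epidermis passed.

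**Figure D5:**
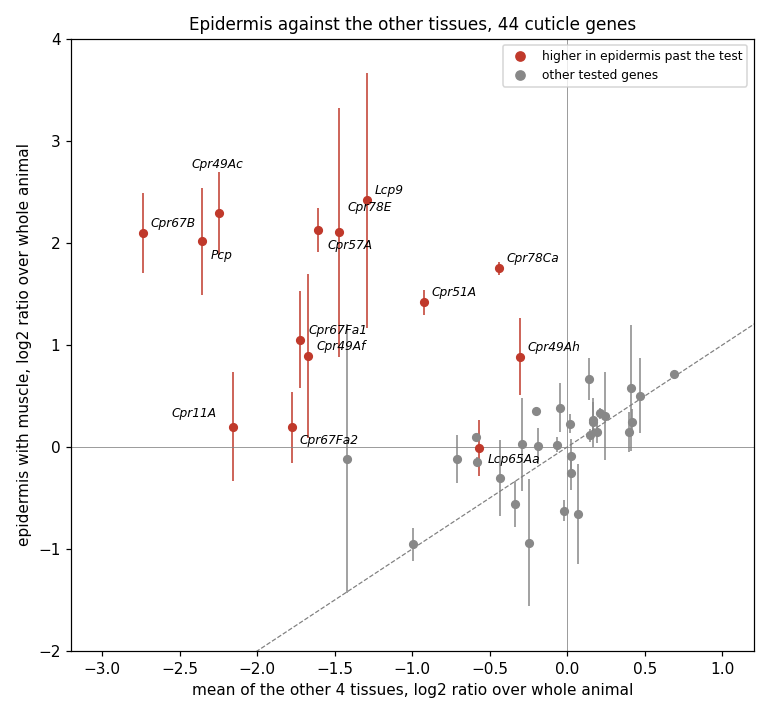
Mean log2 ratio over whole animal in epidermis (vertical axis, error bars 1 SD over 2 or 3 arrays) against the mean of the other 4 tissues (horizontal axis) for the 44 tested cuticle genes. Red points passed the test for higher in epidermis and the dashed line marks equal values; Cpr11A, Cpr67Fa2 and Lcp65Aa lie near 0 on the vertical axis and left of 0 on the horizontal one.

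Set against whole animals directly, epidermis showed 18 of 80 cuticle genes higher (22.5%, against 12.1 percent of all features) and 5 lower (6.25%, against 12.5 percent). Salivary gland had a like share higher, 22 of 94 (23.4%). Midgut had 9 of 89, wing disc 6 of 78 and central nervous system 6 of 75. At an unadjusted p under 0.05 salivary gland had 30 of 94 higher, against 2527 of 11232 features. Adjusted shares of all features are not given for these 4 tissues. All ratios to whole animal leave out the spread of the reference and hold any dye effect, since the tissue was always in Cy5. Of the 14 genes high in epidermis, 11 exceeded whole animal there, led by Lcp9 at log2 2.42, Cpr49Ac at 2.29 and Cpr57A at 2.12. Cpr11A (0.20), Cpr67Fa2 (0.19) and Lcp65Aa (-0.01) did not pass against whole animal and were set apart by low ratios elsewhere, with means over the other 4 tissues of -2.16, -1.78 and -0.57. The 7 further genes higher than whole animal, named after their values were seen, each rest on 2 epidermis arrays. They were Cpr72Ea at 1.17, Cpr12A at 1.02, Ccp84Ag at 0.82, Cpr66Cb at 0.82, TwdlF at 0.81, Cpr65Ec at 0.69 and Cpr47Eb at 0.67. The 5 lower genes, also named after their values were seen, were Cpr92F at -1.57 (SE 0.202, adjusted p = 5.04e-05), Cpr100A at -0.96 and Cpr31A at -0.56 on 3 epidermis arrays each, and Cpr11B at -0.94 and Cpr92A at -0.62 on 2 each. Cpr92F read -1.29, -1.49 and -1.94 in epidermis, against -0.19 to -1.99 on the 10 other arrays with a value, so the tissues overlapped. Without epidermis replicate 3 Cpr100A and Cpr31A did not pass, nor did Cpr31A without replicate 2. Among the higher genes, Cpr49Af did not pass without epidermis replicate 1, Cpr49Ah without replicate 1 or 2, and Cpr72Ea without central nervous system replicate 1, and Cpr65Ec did not pass with a replicate block. The count of 23 genes past this test was 12 without epidermis replicate 1 and 13 without replicate 2. Below log2 -1 lay 1 of 80 cuticle genes in epidermis (1.25%, against 7.84% of all features). The share was 18.7% of 75 genes in central nervous system (13.8% of all features) and 15.7% of 89 in midgut (7.72%). It was 15.4% of 78 in wing disc (12.9%) and 10.6% of 94 in salivary gland (9.49%), both near the share of all features.

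Position on the chromosome was compared through the order of the genes alone. With no more than 2 other protein-coding genes allowed between neighbours, 85 of the 117 genes fell into 17 groups and 32 stood alone. Of the 14 genes that were high in epidermis 8 stood alone (of 16 tested) and 6 lay in groups (of 28 tested). Among all features 8.11 percent were higher in epidermis. The largest groups were of Osi and Twdl genes, few of which could be tested, and an effect of position was not tested. In the group from Cpr49Ac to Cpr49Ag both tested genes, Cpr49Ac and Cpr49Af, were higher, as were Cpr67Fa1 and Cpr67Fa2 in theirs. In the group from Cpr78Ca to Cpr78Cc, Cpr78Ca was higher by 2.19, and the other tested gene, Edg78E, which lies beyond the untested Cpr78Cb, was at -0.11. In 4 larger groups 0 tested genes passed, namely from Osi1 to Osi15 (16 genes, 2 tested), from TwdlM to TwdlQ (10, 2 tested), from Edg84A to Ccp84Aa (7, 3 tested) and from Cpr47Ea to Cpr47Ef (6, 3 tested).

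Of 12 genes measured on 2 or more arrays in a single tissue, no comparison between tissues can be made. They were Cpr5C, Cpr49Ag and Cpr72Eb in wing disc, Cpr49Ae, Cpr76Ba, Cpr76Bc, Osi3, Osi11 and Osi18 in salivary gland, Osi23 in midgut, and TwdlS and Edg84A in central nervous system. TwdlS read 1.14 and 1.16 in central nervous system, and on single arrays 2.42 in epidermis, 1.55 in midgut and 1.35 in salivary gland. Osi11 read 0.84 and 0.96 in salivary gland and 0.70 on 1 wing disc array. For 23 of the 117 cuticle genes every array with a value lay above 0 (19.7%, against 10.1 percent of all named genes). Empty arrays were passed over here, so a gene with few values meets this condition more easily. Cuticle genes had more gaps than named genes at large, and the shares were not matched for this. Of these 23, 7 had a value on 10 or more arrays, namely Ccp84Ag, Cpr50Ca, Cpr66Cb, Osi19, TwdlF, TwdlT and TwdlW.

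Several genes of chitin and tanning were also high in epidermis, in lists chosen with earlier results of these data known. Of all features 8.11 percent were higher in epidermis and 3.63 percent lower. Of 22 tested genes of chitin synthesis and assembly 9 were higher there, 0 lower and 13 did not pass (median log2 0.48). The chitin-binding protein gene obst-E differed by 3.08 (SE 0.369), the chitin deacetylase genes serp and verm by 2.90 (SE 0.266) and 2.47 (SE 0.192), and the chitinase genes Cht5 and Cht7 by 2.56 (SE 0.318) and 2.16 (SE 0.608). Without epidermis replicate 3 the difference of Cht7 was 1.11 and did not pass, and without replicate 2 it was 2.24 and did not pass. Chs2, the chitin synthase gene of the midgut lining, read -1.35 and -1.04 in epidermis (difference -0.29, not past the test). Of 16 tested tanning genes 9 were higher and 0 lower (median 1.0), led by yellow-d2 at 6.25 (SE 0.352), yellow-e at 4.30 (SE 0.395) and the peroxidase gene Pxd at 4.16 (SE 0.281). Next came Ddc, the dopa decarboxylase gene, at 3.83 (SE 0.401) and yellow-b at 3.56 (SE 0.299). The tanning count was 4 of 9 tested without wing disc replicate 1 and 4 of 10 without replicate 2. Of 8 tested regulators of cuticle genes 0 passed in limma, with 2 at an unadjusted p under 0.05 and with 2 passing without epidermis replicate 1 and 1 without replicate 2, and the epithelial transcription factor gene grh was at 0.91 (SE 0.293, adjusted p = 0.0603). Of 2 tested apical matrix genes 0 passed, with 1 unadjusted and 1 without epidermis replicate 1.

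The epidermis samples carried muscle, as labelled. Of 11 listed muscle markers 8 were measured and 7 were higher in epidermis, and their median per array was 0.594 to 1.30 in epidermis, against -3.45 to -1.82 on the other arrays. Of 4 fat body markers tested 0 were higher in epidermis than in the other 4 tissues together, and all 4 were higher in salivary gland. Their array medians were -3.18 to -2.05 in epidermis and -1.21 to 0.134 in salivary gland. Lower than every epidermis array were wing disc (-4.23 to -3.41), midgut (-3.80 to -3.22) and central nervous system (-4.17 to -3.93). At an unadjusted p under 0.05, epidermis was higher for 3 markers against central nervous system, 3 against midgut and 2 against wing disc. It was lower for 3 against salivary gland. Without midgut replicate 3, 1 fat body marker was higher in epidermis. All 4 hemocyte markers tested had their highest tissue mean in epidermis. Of these, Pxn was higher there past the test (1.10, SE 0.327), and the array medians ran from -1.59 to -0.238 in epidermis, against -2.78 to -0.593 elsewhere. That count of 1 was 0 without epidermis replicate 2 or 3, salivary gland replicate 1, wing disc replicate 1, midgut replicate 3 or central nervous system replicate 3, and 2 without salivary gland replicate 2. The part of these cells in the cuticle gene values was not tested. Markers of the other tissues were higher in their own tissue for 4 of 5 salivary gland genes, 3 of 3 wing disc genes, 10 of 10 midgut genes and 2 of 4 nervous system genes, with 1 of the 4 lower there.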

How the data were processed

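The authors deposited log2 ratios of tissue (Cy5) over whole animal (Cy3), 1 column per array; the scale was read from the values. Per the labels, amplification was by in vitro transcription, each tissue had 3 independent samples and dyes were never swapped. Of image processing, background correction and normalization the labels say nothing. Between 7747 and 13505 of 14051 measured rows had a value per array. Arrays were centred on their median. Gene names came from the annotation of the array, updated from current records (10813 of 10817 single-gene rows matched), and rows of a gene were averaged, which gave 13128 features. Rows naming several genes were left out of the gene set (2 rows). Of 15 cuticle genes with more than 1 row, 6 had rows over log2 1 apart in some tissue, namely Cpr100A, Cpr64Aa, Cpr65Ea, Cpr76Bd, TwdlQ and Twdlbeta.

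All features were fitted with limma 3.58.1 (R 4.3.3), 1 mean per tissue over all 15 arrays (prior degrees of freedom 5.965, prior SD 0.338), with Benjamini-Hochberg adjustment over all features and a threshold of 0.05. A feature needed values on 2 of 3 arrays in each tissue compared. The p-values rest on the spread of the samples within tissues. On simulated data 60% of changes of log2 1 and 97% of log2 2 were recovered for epidermis against the other 4 tissues (100 each among 8432 features, 11 false calls). Named genes were the 4 markers, the 12 highest and up to 5 lowest in epidermis past the test, up to 4 highest per other tissue, the largest F per subfamily, genes measured in a single tissue, and the 5 largest differences per pathway list. Genes, lists and tests were chosen with earlier results of these data known. Deviations of same-numbered samples of different tissues had a median correlation of 0.0345, against -0.0299 for other numbers, so no pairing was used. Alternatives were other centrings, scaling, filters, single rows, robust moderation, a replicate block and leaving out each array. Tables used pandas 2.3.3, scipy 1.17.1 and numpy 2.4.6 in python 3.11.15, and plots matplotlib 3.10.9. No sequences or coordinates are given.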

Additional observations from a re-analysis of the deposited data

How the results depend on the processing

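The 12 genes highest in epidermis passed under every one of the 23 alternatives (20 for Cpr78E). In the epidermis comparison, of 439 values of 21 named cuticle genes under alternatives, 426 kept their call and 13 lost it, all of Cpr92A. Of the called genes 0 turned direction. The difference of Cpr65Eb, not past the test, ran from -0.156 to 0.018. Outside these 21 genes, Cpr49Ah lost its call under 2 of 20 alternatives and Lcp65Aa under 5 of 23, and Cpr47Ec gained one under 3 of 20. Counts of called cuticle genes for a tissue against the others or for epidermis against whole animal moved by over 1.5 times in 3 cases besides single arrays. With arrays scaled to a common spread wing disc had 3 calls, against 6. On features measured on all 15 arrays, with only 18 cuticle genes left to test, salivary gland had 2, against 4, and epidermis against whole animal 10, against 23. Leaving out 1 array at a time gave 13 to 18 calls for the F test, 12 to 15 for epidermis against the other tissues, 2 to 6 for salivary gland, 4 to 7 for wing disc, 6 to 11 for midgut, 5 to 11 for central nervous system, 12 to 13 for epidermis against wing disc and 12 to 26 for epidermis against whole animal. The last count was 12 without epidermis replicate 1 and 13 without replicate 2, the central nervous system count 5 without its replicate 1, and the midgut count 6 without its replicate 2 or 3. Salivary gland had 2 calls without its replicate 1, wing disc replicate 2, midgut replicate 2 or central nervous system replicate 1 or 2, each of which left fewer genes to test. Correlations of deviations between arrays of different tissues were -0.487 to 0.352 for the same number and -0.430 to 0.58 for other numbers. The numbers were therefore not taken as pairs. A replicate block gave 16 calls for the F test, against 17, 15 for epidermis against the other tissues, of which 14 were shared with the 15 without it (Cpr92A was lost and Cpr47Ec gained), and 5 for salivary gland, 6 for wing disc, 12 for midgut, 10 for central nervous system, 12 for epidermis against wing disc and 25 for epidermis against whole animal. Among the pairs, salivary gland against midgut had 3 calls with the block and 1 on features measured on all 15 arrays, against 5. Tanning genes had 3 calls of 7 tested on those features, against 9 of 16. Regulators had 2 with arrays scaled and 1 with the block, against 0, and hemocyte markers 0 without centring, against 1. Too few values leave 73 of the 117 genes untested.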

Other observations

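Osi2, chosen after its values were seen, read 2.03 and 2.37 on 2 wing disc arrays, against 0.70 on 1 epidermis array, 0.56, 0.42 and 1.07 in salivary gland, -0.40 on 1 midgut array and -0.32, 0.20 and 0.20 in central nervous system. It could not enter the comparison over all tissues. In the pairs it could enter, it was higher in wing disc than in central nervous system by log2 2.17 (SE 0.297, adjusted p = 0.00118), and salivary gland minus wing disc was -1.52 (adjusted p = 0.0044). Of the other 22 osiris genes, 6 had values on 2 or more wing disc arrays, so the comparison with the family is thin.

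The 3 epidermis arrays ranked differently from gene to gene. Among the 14 high cuticle genes, replicate 3 was the highest of 3 for 5 and the lowest for 7, and replicate 1 the highest for 3 and the lowest for 3. Ddc, the dopa decarboxylase gene of tanning, read 1.37, 3.68 and 4.39 on replicates 1, 2 and 3, and the chitinase gene Cht5 read 1.40, 2.28 and 3.27. Lcp9, at 2.67, 3.53 and 1.06, and Cpr49Af, at 1.69, 0.90 and 0.08, were lowest on replicate 3, where Cpr78E was highest at 3.51.

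A row annotated to both Lcp65Ag1 and Lcp65Ag2, left out of the gene set, read -0.89 and -0.03 in epidermis and -0.98 and -0.76 in salivary gland. The row annotated to TwdlL and TwdlB read 1.48, 0.55 and 0.39 in epidermis, against 0.96, 0.95 and 1.38 in salivary gland.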
